A study of Mus musculus with 6 samples.

Results

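The genes described here make, bind, break down and respond to retinoic acid, the active form of vitamin A. They are 9 named genes, Stra6, Rdh10, Aldh1a1, Aldh1a2, Aldh1a3, Crabp2, Rarb, Cyp26a1 and Cyp26b1, out of 25777 genes and unnamed transcripts that could be tested. They were chosen by name, with the differences between propolis and vehicle on these same arrays already known, so their own differences are given as a description without a test. All 9 had at least 1 probe, 10 probes in all, and all 9 passed the filter on dim probes, although Cyp26a1 passed only through the propolis arrays. RNA came from the vascular stromal cells of mesenteric fat, those that remain when fat is digested with collagenase, the cells are pelleted and red cells are lysed. All mice were male C57BL/6JHamSlc-ob/ob, a strain that lacks functional leptin and becomes obese, so both groups share that defect. One group received Brazilian propolis extract, a bee product, into the peritoneal cavity for 12 weeks, at 100 mg/kg and 2 times a week, and the other received vehicle with a low concentration of DMSO and ethanol. Each group had 3 samples called biological replicates, and the labels give neither the age of the mice nor the number of mice behind a sample, so the p-values below measure only the spread between these samples.

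Retinol is taken into some cells through the receptor STRA6 and is oxidised reversibly to retinaldehyde by enzymes such as RDH10. The ALDH1A enzymes then oxidise retinaldehyde irreversibly to retinoic acid, which CRABP2 carries to nuclear retinoic acid receptors, and CYP26 enzymes break it down. Receptors bound to DNA switch on targets that include Rarb and Cyp26a1 themselves, and in fat retinoic acid is known to restrain the differentiation of preadipocytes.

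Levels are log2 intensities relative to the 75th percentile of the array, so a difference of 1.00 is a doubling in intensity, and ± marks the SD of 3 arrays (n = 3). That percentile lay between 459.4 and 729.0 intensity units, and 61.1% to 66.7% of the 59305 spots per array were well above background. Slide 1, scanned on day 1, carried the arrays numbered 1 and 2 of both groups, and slide 2, scanned on day 2, carried vehicle 3 and propolis 3. Some arrays stood apart. On vehicle 2 the pancreatic acinar markers averaged 4.64, against -3.32 to -2.47 on the other arrays, and on vehicle 3 the intestinal epithelial markers averaged 4.54, against -3.67 to -0.51. Over all genes tested with limma, 215 differed between the groups at an adjusted p under 0.05, which is 0.834%, and 11 to 94 did with 1 array left out, the fewest without vehicle 2 or without propolis 2. In these bulk samples fewer cells of a type and less RNA per cell cannot be told apart.

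Promoter sequence is shown first for the members whose proximal promoter holds a match to the classical retinoic acid response element, since both are textbook targets of the hormone. The search covered 250 bases before to 50 after each RefSeq start site on GRCm38.p6, on both strands. It looked for a pair of repeat units in the same orientation, each AGGTCA or AGTTCA or GGGTCA or GGTTCA, with 5 bases between them (DR5). RefSeq promoters matched 6 of the 9 members, with 10 promoters in all. Rarb and Cyp26a1 held a DR5 match and Stra6, Aldh1a1, Aldh1a2 and Cyp26b1 did not. Of all 27025 genes with a RefSeq promoter 0.115% held one, and of all 32851 promoters 0.0974%. The same units 1 base apart (DR1) were found in 0.222% of all promoters and 2 bases apart (DR2) in 0.268%, and in no member. A match is a description of the letters and not evidence of binding in these cells. The windows are written 5′ to 3′ on the strand of the gene, with the element in capitals.
Rarb: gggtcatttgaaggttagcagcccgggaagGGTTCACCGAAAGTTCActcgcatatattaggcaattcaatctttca
Cyp26a1: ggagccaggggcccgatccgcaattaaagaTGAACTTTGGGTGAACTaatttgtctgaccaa
The Rarb window is chr14:16575483-16575559, minus strand, and the first base of its element lies 53 bases before the start site. The Cyp26a1 window is chr19:37697746-37697807, plus strand, with its first element base 32 bases before the start site. There the element reads on the opposite strand, as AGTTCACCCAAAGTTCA.

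Mean levels were higher after propolis for 8 of the 9 members and lower for Cyp26b1, against a mean higher after propolis in 49.6% of all genes tested. In 4 members, Rdh10, Crabp2, Rarb and Cyp26a1, every propolis array lay above every vehicle array, a pattern seen in 10.8% of all genes. No member had all propolis arrays below all vehicle arrays, as 6.62% of all genes did. The other 5 members overlapped between the groups. The median difference of the members was 0.61 and that of all genes -0.00408. Since the members were picked with these differences known, nothing is read from the counts. Crabp2 and Cyp26a1 had the largest differences, and only these exceeded 1.00.

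**Figure D1:**
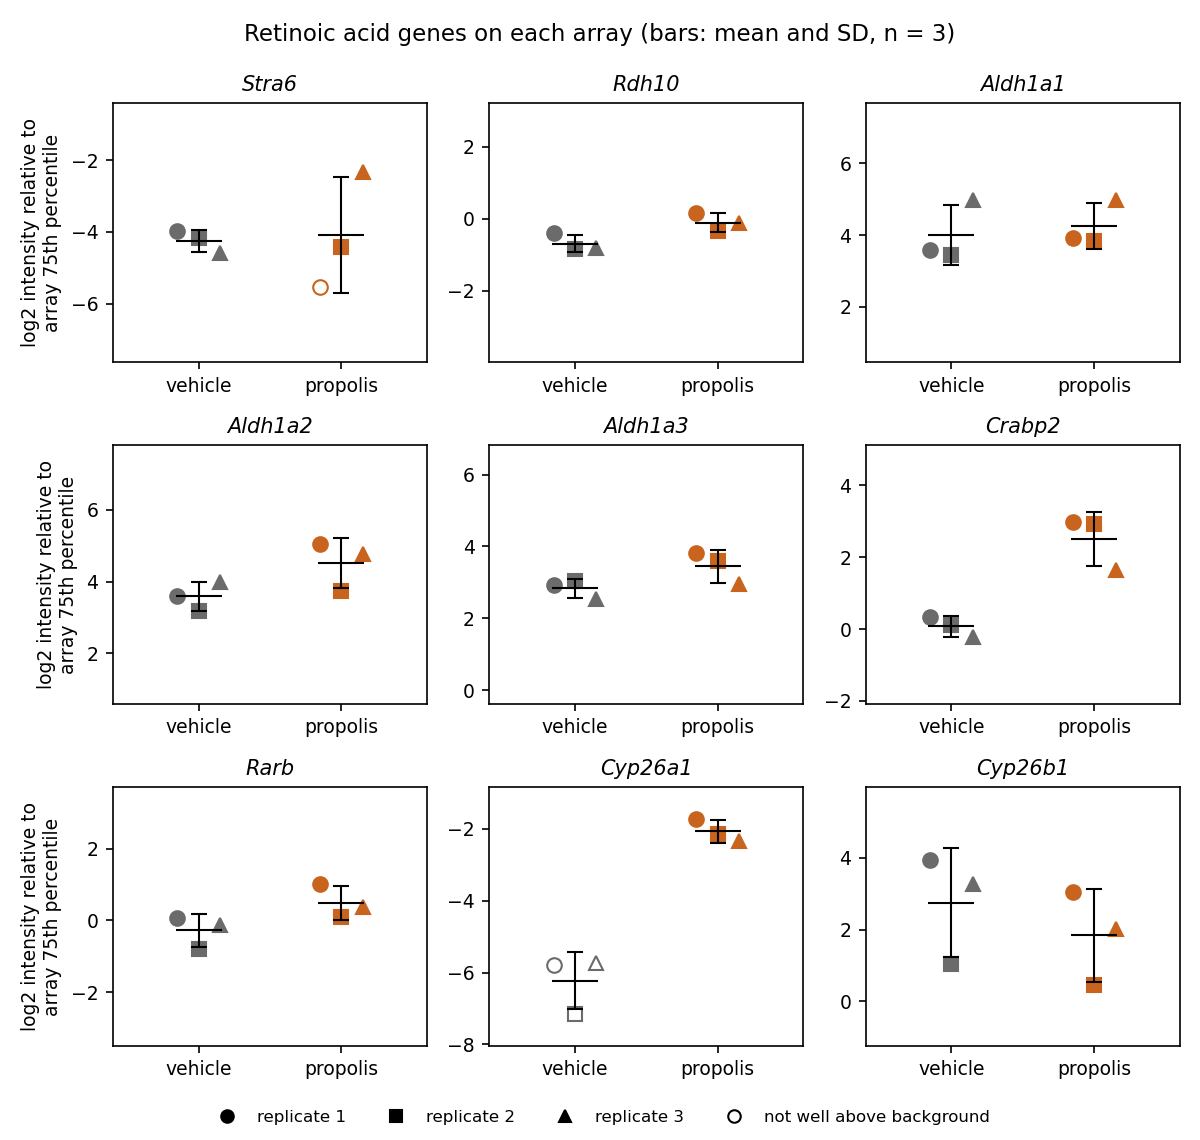
Level of each of the 9 genes on each array, as log2 intensity relative to the array 75th percentile, with vehicle in grey and propolis in orange. Each panel spans the same number of log2 units around its own centre, bars give the mean and SD of 3 arrays, and open symbols are not well above background. Crabp2 and Cyp26a1 separate widely between the groups, while Stra6, Aldh1a1, Aldh1a2, Aldh1a3 and Cyp26b1 overlap.

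Uptake of retinol is represented by Stra6, the cell surface receptor for retinol bound to its carrier protein. Its level was -3.98, -4.16 and -4.59 on vehicle 1, 2 and 3, and -5.52, -4.41 and -2.33 on propolis 1, 2 and 3. The propolis arrays lay on both sides of the vehicle arrays, and propolis 1 was not well above background. The means were -4.24 ± 0.31 and -4.09 ± 1.62, a difference of 0.16, far smaller than the spread among the propolis arrays. On slide 1 the difference was -0.89 and on slide 2 it was 2.26. It was -0.72 without propolis 3 and 0.87 without propolis 1, so single arrays set its direction.

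Rdh10 encodes the retinol dehydrogenase that carries out the first oxidation in the embryo and in many adult tissues. Its level was -0.40, -0.85 and -0.81 on the vehicle arrays and 0.16, -0.35 and -0.13 on the propolis arrays. The lowest propolis array was 0.05 above the highest vehicle array. The means were -0.69 ± 0.25 and -0.10 ± 0.26, a difference of 0.58 or 1.50-fold, and the differences were 0.53 on slide 1 and 0.69 on slide 2. With arrays weighted by their scatter (array weights) the difference was 0.22, and against vehicle 1 alone, without vehicle 2 and vehicle 3, it was 0.30.

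The retinaldehyde dehydrogenases catalyse the step that commits retinaldehyde to retinoic acid, and all 3 were well above background on all 6 arrays. Aldh1a1 was at 3.58, 3.45 and 4.98 on the vehicle arrays and at 3.92, 3.82 and 4.98 on the propolis arrays. Both arrays of slide 2 were high and nearly equal, and the groups overlapped. The means of Aldh1a1 were 4.002 ± 0.85 and 4.24 ± 0.64, a difference of 0.24 or 1.18-fold, with 0.36 on slide 1 and 0.0013 on slide 2. Without propolis 3 the difference was -0.13 and without vehicle 3 it was 0.73.

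Aldh1a2, which mesothelial and other stromal cells of the body cavities are known to make, had the largest difference of the 3 enzymes. It was at 3.59, 3.19 and 3.99 on the vehicle arrays and at 5.05, 3.74 and 4.76 on the propolis arrays. Propolis 1 and propolis 3 lay above all vehicle arrays, but propolis 2 lay below vehicle 3. The means were 3.59 ± 0.40 and 4.52 ± 0.69, a difference of 0.93 or 1.91-fold, with 1.01 on slide 1 and 0.77 on slide 2. With 1 array left out in turn the difference ran from 0.66 to 1.32, and with array weights it was 0.50.

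Aldh1a3 was at 2.94, 3.03 and 2.54 on the vehicle arrays and at 3.81, 3.58 and 2.94 on the propolis arrays. Propolis 3 fell within the vehicle range and both propolis arrays of slide 1 lay above it. The means were 2.84 ± 0.26 and 3.44 ± 0.45, a difference of 0.61 or 1.52-fold. The difference was 0.71 on slide 1 and 0.40 on slide 2.

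**Figure D2:**
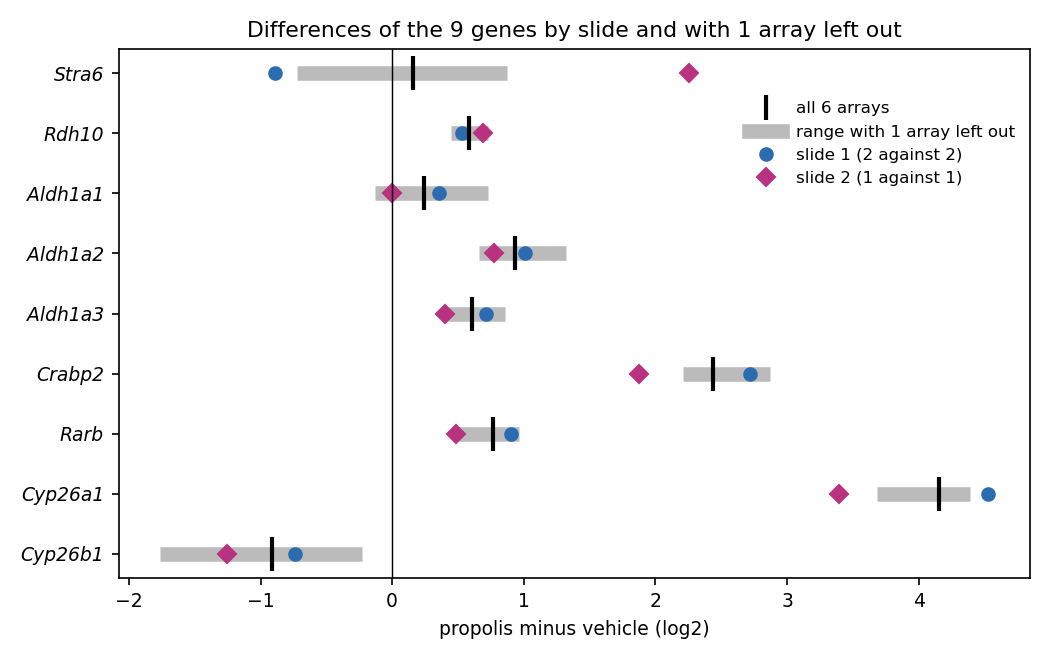
Difference between propolis and vehicle means, in log2 units, for each of the 9 genes over all 6 arrays (black bar), on slide 1 with 2 arrays against 2 (circle), on slide 2 with 1 against 1 (diamond), and as the range when 1 array is left out (grey). The differences of Rdh10, Aldh1a2, Aldh1a3, Crabp2, Rarb and Cyp26a1 are above 0 on both slides, that of Cyp26b1 is below 0 on both, and that of Stra6 changes sign between -0.89 and 2.26.

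Crabp2 encodes the cellular protein that delivers retinoic acid to its nuclear receptors. Its level was 0.32, 0.12 and -0.23 on the vehicle arrays and 2.97, 2.92 and 1.64 on the propolis arrays. The lowest propolis array, propolis 3, was 1.32 above the highest vehicle array. The means were 0.07 ± 0.28 and 2.51 ± 0.75, a difference of 2.44 or 5.42-fold, which exceeded the SD of either group. On slide 1 it was 2.72 and on slide 2 it was 1.87, and with 1 array left out it ran from 2.21 to 2.87. Crabp2 thus had the largest difference among the members measured above background on every array.

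Among all genes with a symbol, those whose levels followed Crabp2 closely over the 6 arrays, by Pearson correlation, included Twist1 (r = 0.998) and Ddr1, Ankrd42 and Mex3a (each r = 0.997). Twist1 encodes a transcription factor of mesenchymal cells and Ddr1 a collagen receptor. Their differences were 1.27 for Twist1, 1.47 for Ddr1, 1.50 for Ankrd42 and 2.73 for Mex3a. Like Crabp2, each was lower on propolis 3 than on propolis 1 and propolis 2, and lowest of all on vehicle 3. The 6 points share the split into 2 groups and the 2 slides, so a high r is a description only.

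Rarb encodes retinoic acid receptor beta, itself induced by retinoic acid in many cells. On its brighter probe the level was 0.08, -0.79 and -0.12 on the vehicle arrays and 1.00, 0.09 and 0.37 on the propolis arrays. The groups did not overlap, but the lowest propolis array was only 0.013 above the highest vehicle array. The means were -0.28 ± 0.45 and 0.49 ± 0.47, a difference of 0.76 or 1.70-fold, with 0.90 on slide 1 and 0.49 on slide 2. On the second Rarb probe the levels were -2.61, -3.33 and -2.96 against -1.97, -2.92 and -2.20. That probe gave means of -2.97 ± 0.36 and -2.36 ± 0.50 and a difference of 0.60, and there the groups overlapped, so the probes differ on whether the groups separate. On the brighter probe the difference was 0.30 with array weights, 0.51 without vehicle 2 or without propolis 1, and 0.41 against vehicle 1 alone.

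Cyp26a1 encodes the main retinoic acid hydroxylase of many tissues and is among the most strongly induced retinoic acid targets known. None of the vehicle arrays measured it well above background, and the levels there were -5.78, -7.15 and -5.74. It was well above background on every propolis array, at -1.72, -2.14 and -2.34. The measured means were -6.22 ± 0.81 and -2.07 ± 0.32. Since the vehicle signal was not well above background, the difference is also given against a limit. For each vehicle array the limit was the dimmest signal that any well-measured probe reached on it, or the Cyp26a1 signal where that was brighter, and the mean limit was -5.36. Against that limit Cyp26a1 was 9.80-fold higher after propolis. That is not a guaranteed minimum, since a probe brighter than the limit may still not count as well above background. The measured difference was 4.53 on slide 1 and 3.39 on slide 2. Under another background correction (normexp), which raises dim signals, it was 1.37, below the 3.29 against the limit, and the direction was the same.

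Cyp26b1, the related hydroxylase, was the member with a lower mean after propolis. Its level was 3.94, 1.04 and 3.26 on the vehicle arrays and 3.04, 0.46 and 2.00 on the propolis arrays. Vehicle 2 and propolis 2 were far below the other arrays of their groups, and the groups overlapped. The means were 2.75 ± 1.51 and 1.84 ± 1.30, a difference of -0.91, which is smaller than either SD. Without vehicle 2 the difference was -1.76, without propolis 2 it was -0.23 and without vehicle 1 it was -0.32. With array weights it was -2.53. The 2 hydroxylases had differences of opposite sign.

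The rest of the retinoid pathway was taken from a list of 71 other genes, of which 59 could be tested with limma. After propolis 1 of them rose, Meis1, and 1 fell, Cebpe, at an adjusted p under 0.05, where 0.722% of all genes rose and 0.113% fell. Means were higher for 30 of the 59 and lower for 29, with a median difference of 0.00066. An unadjusted p under 0.05 was reached by 12 of the 59, and by 11.7% of all genes tested. Groups did not overlap for 7 higher and 9 lower genes of the 59, and for 10.8% higher and 6.62% lower of all genes. Neither call was kept when any 1 array was left out.

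**Figure D3:**
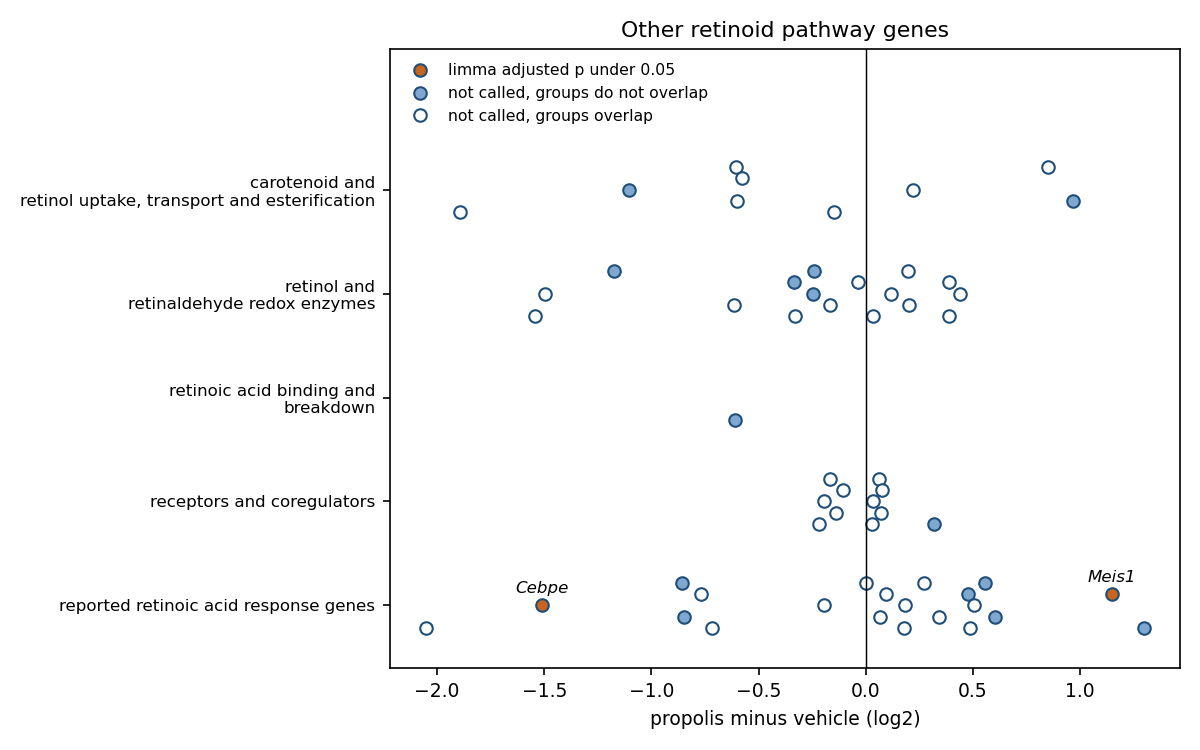
Difference between propolis and vehicle means, in log2 units, for each of the 59 other retinoid pathway genes tested, in rows by role. Orange points passed limma at an adjusted p under 0.05, blue points did not pass but their groups do not overlap, and open points overlap. Receptors and coregulators lie closest to 0, and the called genes Meis1 and Cebpe both lie among the reported response genes.

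Of the uptake, transport and esterification genes 9 of 13 were tested, 3 with higher and 6 with lower means, and 0 were called by limma, with 2 at an unadjusted p under 0.05. The largest differences were those of Isx, an intestinal repressor of vitamin A uptake, at -1.90 (limma adjusted p = 0.804), and Stra6l, a receptor gene related to Stra6, at -1.10 (adjusted p = 0.292). Stra6l went from -0.93 ± 0.38 to -2.03 ± 0.59 without overlap. Isx was well above background on only 3 of the 6 arrays, so the size of its difference is uncertain. It was at 1.99 on vehicle 3, the array with high intestinal markers, and its difference was 0.56 without vehicle 3.

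Among the redox enzymes 17 of 21 were tested, 7 with higher and 10 with lower means, and 0 were called by limma, with 1 at an unadjusted p under 0.05. The largest differences were -1.55 for Rdh7 (limma adjusted p = 0.853) and -1.50 for Adh4 (adjusted p = 0.684), a retinol dehydrogenase and an alcohol dehydrogenase that also oxidises retinol. Each was well above background on only 3 of the 6 arrays, so these sizes are uncertain. Both were highest on vehicle 3, at 1.84 for Rdh7 and -1.96 for Adh4, and without it the differences were 0.97 for Rdh7 and -0.42 for Adh4. Groups did not overlap, with propolis lower, for Rdh11, Rdh13, Rdh19 and Dhrs9, a pattern seen in 6.62% of all genes. The gaps between the groups were 0.018, 0.17, 0.045 and 0.17, and limma adjusted p was 0.326 to 0.697. Dhrs3, which reduces retinaldehyde back to retinol and was named after its values were seen, had a difference of 0.20 (adjusted p = 0.778).

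Of the other binding and breakdown genes Fabp5 alone was tested, while Crabp1 and Cyp26c1 were well above background on no array. Fabp5, which carries fatty acids and retinoic acid, was at 6.29 ± 0.32 in vehicle and 5.68 ± 0.29 in propolis, a difference of -0.61 (limma adjusted p = 0.411). All 11 receptor and coregulator genes were tested, 6 with higher and 5 with lower means, with 0 called by limma and 0 below 0.05 before adjustment. The largest differences there were 0.32 for the corepressor Nrip1 (adjusted p = 0.672) and -0.22 for the partner receptor Rxra (adjusted p = 0.786). Without propolis 1 they were 0.12 and -0.04. The genes of the other retinoic acid receptors, named after their values were seen, had differences of 0.06 for Rara (adjusted p = 0.925) and 0.03 for Rarg (adjusted p = 0.976). Rarb thus had the largest difference of the 3 receptor genes, though its own difference took part in its choice.

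Of the 23 genes reported to respond to retinoic acid 21 were tested, 14 with higher and 7 with lower means. Their median difference was 0.18. A limma unadjusted p under 0.05 was reached by 8 of the 21, and by 11.7% of all genes tested. These 8 were split in direction, with Meis1, Meis2, Hoxa5, Hoxb3 and Hoxb4 higher and Stra8, Cebpe and Ret lower. Meis1, a homeobox transcription factor, rose from 2.63, 2.77 and 2.82 on the vehicle arrays to 3.98, 3.74 and 3.95 on the propolis arrays. Its difference was 1.15 or 2.22-fold (limma adjusted p = 0.0457), at 1.16 on slide 1 and 1.13 on slide 2, and its adjusted p was between 0.0824 and 0.219 with any 1 array left out. Cebpe, a transcription factor of granulocyte maturation, fell from -0.79, -1.14 and -0.41 to -2.29, -2.34 and -2.24. Its difference was -1.51 (adjusted p = 0.0491), at -1.35 on slide 1 and -1.83 on slide 2, and its adjusted p was between 0.0871 and 0.199 with any 1 array left out. The largest difference in size was that of Cdx1, an intestinal homeobox gene, at -2.05 (adjusted p = 0.749). Cdx1 was at 2.89 on vehicle 3, and its difference was -0.01 without that array.

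The groups also did not overlap for Meis2, Hoxa5, Hoxb3 and Hoxb4, higher after propolis, and for Stra8 and Ret, lower, none of which passed. Of all genes 10.8% were higher and 6.62% lower without overlap. Meis2, the homeobox gene related to Meis1 and named after its values were seen, went from 1.37 ± 0.29 to 2.66 ± 0.35, a difference of 1.30 (limma adjusted p = 0.0972). Hoxa5, named in the same way, differed by 0.61 (adjusted p = 0.214).

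Markers of the cells in the fraction were read beside these values. The mesothelial list was higher on the propolis arrays. Mesothelium is the cell layer that covers the fat on its peritoneal side. Its list averaged 0.76, -0.48 and 1.14 on the vehicle arrays and 1.84, 1.45 and 2.31 on the propolis arrays, without overlap. On vehicle 3 the list held high keratins, which intestinal epithelium also makes, with Krt19 at 5.24 and Krt8 at 4.74. Its 8 tested genes that are no keratins, separated after their values were seen, averaged 1.16, -0.08 and 0.37 on the vehicle arrays and 2.28, 1.80 and 2.70 on the propolis arrays. Of its 12 genes 11 were tested, and 10 had higher means, as 49.6% of all genes did. The median difference was 1.59. Of the 11 genes 2 rose (limma adjusted p = 0.0320 for Wt1 and 0.0299 for Bnc1), where 0.722% of all genes rose. With 1 array left out the adjusted p was 0.0575 to 0.144 for Wt1 and 0.0448 to 0.126 for Bnc1. The defining surface gene Msln was at 3.34, 1.76 and 2.53 in vehicle and 4.96, 3.56 and 4.83 in propolis, a difference of 1.91 that did not pass (adjusted p = 0.218). Upk3b differed by 1.14 with overlap and Lrrn4 by 1.71 without, and all were well above background on every array. Within the propolis group the list was highest on propolis 3. Its tested genes were highest there too, except Msln and Bnc1, which were highest on propolis 1. The members were also highest on propolis 1, except Stra6 and Aldh1a1, which were highest on propolis 3. Crabp2, Aldh1a3 and Cyp26a1 were lowest on propolis 3. Rdh10, Aldh1a1, Aldh1a2, Rarb and Cyp26b1 were lowest on propolis 2, and Stra6 on propolis 1. The part of mesothelial cells in the differences of Crabp2, Aldh1a2, Cyp26a1 and the other members was not tested.

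**Figure D4:**
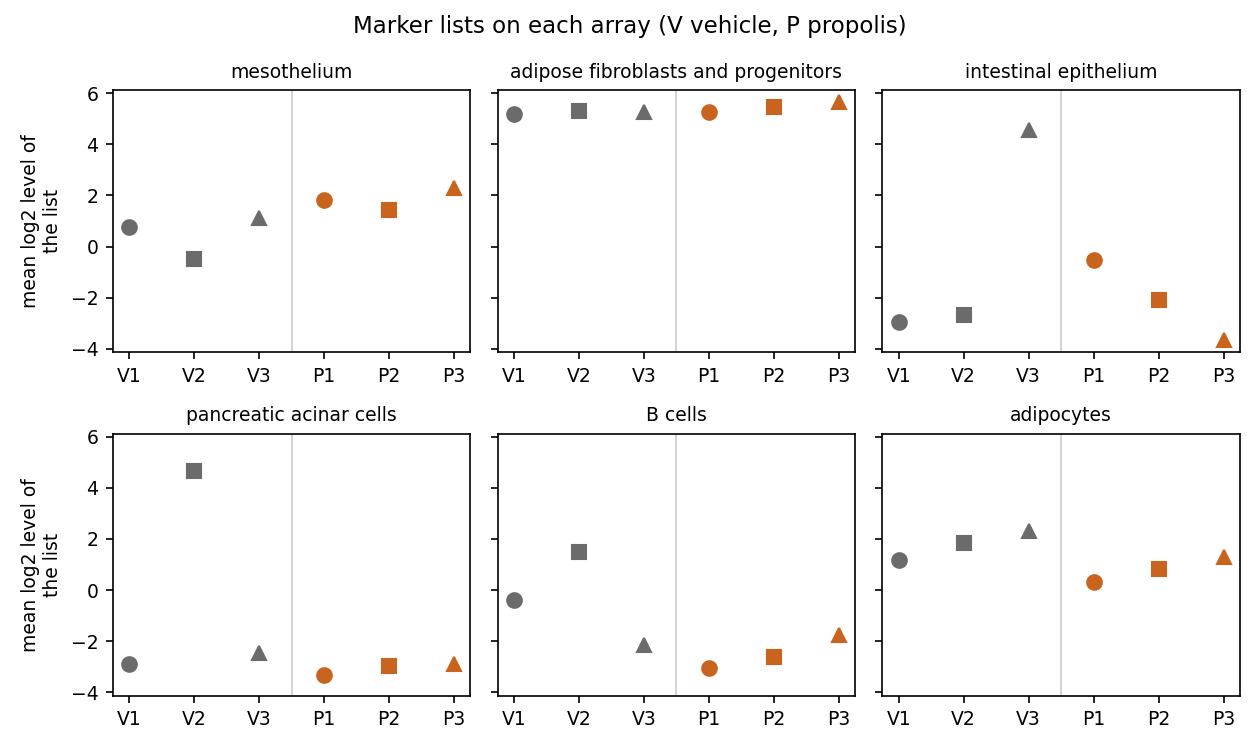
Mean log2 level of 6 marker lists on each array, vehicle in grey and propolis in orange. Mesothelial markers lie between 1.45 and 2.31 on the propolis arrays and at most 1.14 on the vehicle arrays. Fibroblast markers lie between 5.18 and 5.64 on all arrays. Pancreatic acinar markers are high on vehicle 2 only, and intestinal markers on vehicle 3 only.

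Fibroblast and progenitor markers, the main stromal cells expected in this fraction, averaged 5.18 to 5.29 on the vehicle arrays and 5.25 to 5.64 on the propolis arrays, with 7 of 12 higher and a median difference of 0.11. The list did not move as a whole: 4 of its genes, Col15a1, Lum, Col1a1 and Col3a1, were higher without overlap, by 0.93, 0.81, 0.62 and 0.49, and none passed (limma adjusted p = 0.170 to 0.384). Adipocyte markers, whose cells the preparation should remove, had lower means after propolis in 10 of 10 genes, with a median difference of -0.87, and none was called by limma (5 of 10 at an unadjusted p under 0.05). Dendritic cell markers, of interest because intestinal dendritic cells make retinoic acid through Aldh1a2, had lower means in 7 of 8 genes, with a median difference of -0.50, and limma called 0 (4 at an unadjusted p under 0.05). Blood endothelial markers had lower means in 9 of 9 genes, with a median difference of -0.80, and averaged 2.48 to 3.05 on the vehicle arrays and 1.48 to 2.62 on the propolis arrays. T cell markers had lower means in 8 of 8 genes, with a median difference of -0.66, and averaged 1.48 to 2.84 and 1.00 to 1.87. The groups overlapped in the averages of both lists and limma called 0 genes in either, with 2 endothelial and 1 T cell gene at an unadjusted p under 0.05. B cell markers had lower means in 8 of 8 genes, with a median difference of -2.11, and limma called 0 (3 at an unadjusted p under 0.05). They averaged 1.50 on vehicle 2 and -0.38 on vehicle 1, against -3.05 to -1.77 on the other 4 arrays. Without overlap, 4 adipocyte, 5 dendritic, 1 endothelial, 1 T cell and 0 B cell genes were lower, and 1 dendritic gene was higher. Of all genes tested 11.7% had a limma unadjusted p under 0.05, and 10.8% were higher and 6.62% lower without overlap. The part of these cells in the members' values was not tested. With vehicle 2 and vehicle 3 both left out, the differences were 2.19 for Crabp2 and 3.71 for the measured values of Cyp26a1. They were 0.93 for Aldh1a2 and -2.10 for Cyp26b1, and each of these kept the direction given above. In that setting 7 of the 9 members had higher means. The direction of Stra6 reversed, with its propolis mean of -4.09 below vehicle 1 at -3.98. The smaller differences of Rdh10 and Rarb against vehicle 1 alone are given above.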

How the data were processed

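Per the labels, total RNA was labelled with Cy3 and hybridised to 1-colour Agilent mouse arrays, read with Agilent Feature Extraction 10.7.3.1 per the submitters' processing notes. The deposited scanner files hold a background-corrected processed signal, an intensity on a linear scale. The authors' series table holds log2 values of the same arrays, shifted so that the 75th percentile of each array is near 0, and served only as an alternative.

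The processed signal was put on the log2 scale without non-uniform spots, averaged over the spots of a probe and centred on the 75th percentile of its array. Probes entered if well above background on at least 3 of 6 arrays (34786 of 55681 probes), and the brightest probe stood for its gene. No probe was saturated. Symbols came from RefSeq accessions (GRCm38.p6, names only), and 28446 probes had none. The groups were tested in R 4.3.3 with limma 3.58.1 (lmFit, eBayes, no block, Benjamini-Hochberg over all 25777 genes, threshold 0.05), tested on simulated data.

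Named genes were the 9 members, called pathway genes, the 2 largest differences in each of 5 pathway lists, the 5 genes most like Crabp2 and defining mesothelial markers, with exceptions said in place; of these, 1 gene is not reported here. The members, lists and alternatives were chosen with earlier results of these data known. Normexp used median signals with an offset of 50.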

Additional observations from a re-analysis of the deposited data

How the results depend on the processing

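Over all genes limma called 215, against 106 without the filter on dim probes, 3231 with array weights, 73 with the replicate number as a block (replicate block), 11 to 94 with 1 array left out and 0 on slide 1 alone (5856 at an unadjusted p under 0.05). Of the other retinoid pathway genes 1 was called higher. That count was 2 with normexp or the slide as a block, 7 with array weights, and 0 with quantile scaling, no filter, the replicate block, slide 1 alone or any 1 array left out. The 1 called lower became 8 with array weights and 0 with normexp, quantile or median scaling, no filter, the replicate block, slide 1 alone or any 1 array left out. Leaving out vehicle 2 and vehicle 3 together, an alternative chosen after seeing the data, called 0 genes (1362 at an unadjusted p under 0.05), 0 of the pathway in either direction, and assumes that vehicle 1 varies like the propolis arrays. The cause of these changes was not tested. Deviations of same-numbered arrays correlated at 0.036 to 0.291, 2 of 3 above 0.1, and those of differently numbered arrays at -0.310 to 0.206. These few correlations do not settle whether the numbers mark pairs. The labels state no pairs, so the numbers were not taken as such. Median scaling moved the median difference of all genes from -0.00408 to 0.15. Of the 9 members 6 to 8 had higher means in the settings that tested all of them, and with a probe required above background on all 6 arrays, which left out Stra6 and Cyp26a1, 6 of 7 had. The direction of Rdh10, Aldh1a2, Aldh1a3, Crabp2, Rarb and Cyp26b1 was the same in every setting run, and that of Cyp26a1 in every setting that tested it. With 3 arrays a group, and Cyp26a1 and Stra6 near background, the sizes of small differences are poorly known.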

Other observations

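Of the 12 pathway genes too dim to test, 8 were well above background on no array. Several others were measured on 1 or 2 arrays that included vehicle 3, where intestinal markers were high. Lrat, which esterifies retinol, and the retinol dehydrogenase gene Rdh16 were above background on vehicle 3 alone, and Rbp2, the intestinal retinol-binding protein, on vehicle 3 and propolis 1.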
